A study of Mus musculus with 22 samples.

Results

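The HOX genes are the 39 genes of the mouse Hoxa, Hoxb, Hoxc and Hoxd clusters, taken here as every gene of the expression table named Hox with a cluster letter from a to d and a number. They are 39 of the 34745 genes in the table: 11 in the Hoxa cluster, 10 in Hoxb, 9 in Hoxc and 9 in Hoxd. HOX proteins are homeodomain transcription factors that give cells their position along the head-to-tail axis of the embryo. Genes at the same place in different clusters descend from 1 ancestral gene and form a paralogue group, and low-numbered groups are switched on nearer the head than high-numbered ones. In the female reproductive tract of the mouse, the high-numbered Hoxa genes pattern the Müllerian duct into oviduct, uterus and vagina, a duct that lies beside the gonad.

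Whole ovaries of wild-type CD1 mice, which are outbred, were profiled by bulk RNA sequencing in 2 libraries at each of 11 ages. Of these, E13, E15 and E17 are embryonic days. The others were birth (P0), postnatal days 3, 7, 14, 21 and 60 (P3 to P60), 1 year (Y1) and 2 years (Y2). No group carried a treatment or a genetic change, and the labels give no cycle stage. The protocol text names an age P5 that no library has and does not name Y1, and the numbers in the titles of the E15 libraries are 2 and 3. Fetal values are printed with fewer decimals than postnatal ones, and whether all came from the same quantification run is not known. Below, fetal means the 6 libraries of E13, E15 and E17, and adult the 6 libraries of P60, Y1 and Y2.

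Levels are FPKM, fragments scaled to transcript length and to the mapped fragments of the library. The low values of single-transcript genes came as whole multiples of the value of 1 read in 94.5 to 97.1% of cases per library, within 0.02 reads, which puts the depth at about 11480000 to 18140000 reads. At that depth 1 FPKM on a transcript of 2000 bases is 23.0 to 36.3 reads. Ovarian markers were present, and marker genes of oviduct, uterus and mesonephric duct were read beside the HOX genes, since a dissected ovary can carry such tissue. Their summed level was 77.6 and 79.5 FPKM at E13, 40.7 and 45.7 at E15, 33.4 and 33.7 at E17, and 6.89 to 11.8 in the adult libraries. The libraries of Y2 stood apart from each other: over all genes tested, their SD on the log2 scale was 0.42, against 0.15 to 0.24 within the other ages. The steroidogenic gene Star was at 123 FPKM in Y2 replicate 1 and 3275 in Y2 replicate 2.

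In the mm10 build the Hoxa cluster lies on the minus strand of chromosome 6, with the outer end of Hoxa13 at 52260880. The Hoxb cluster lies on the plus strand of chromosome 11, from Hoxb13 at 96194316 to the end of Hoxb1 at 96368256. The Hoxc cluster is on the plus strand of chromosome 15, from Hoxc13 at 102921103 to the end of Hoxc4 at 103036852. The Hoxd cluster is on the plus strand of chromosome 2, from Hoxd13 at 74668310 to the end of Hoxd1 at 74765142. All 39 genes were found in the GENCODE annotation of that build. For 7 of them over 20% of the transcript sequence is shared with another annotated transcript, counted in words of 31 bases. Hoxd3 shares 61.2% and Hoxd4 49.1%, on the same strand, with each other and with the gene model Gm28230, and Hoxb3 shares 52.7% with an antisense RNA. The others are Hoxa11 with 33.9%, Hoxb2 with 26.5%, Hoxa3 with 26.0% and Hoxa7 with 20.5%. Whether the counting used strand is not given in the sources used here, so the levels of these 7 are uncertain.

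Promoter sequences are shown for a pair of genes from paralogue group 9 that parted with age, Hoxa9 and Hoxd9, and for Hoxa5 and Hoxd4, the largest fall and the largest rise from fetal to adult ovary. They come from RefSeq on build GRCm38.p6 and read 5′ to 3′ toward the transcription start. Capitals mark matches on either strand to the CCAAT box (CCAAT), the TATA box (TATAAA), the Sp1 GC box (GGGCGG), the retinoid receptor motif (AGGTCA) or the PBX-HOX composite site (TGATTNAT). No match overlaps another in these windows.
Hoxa9: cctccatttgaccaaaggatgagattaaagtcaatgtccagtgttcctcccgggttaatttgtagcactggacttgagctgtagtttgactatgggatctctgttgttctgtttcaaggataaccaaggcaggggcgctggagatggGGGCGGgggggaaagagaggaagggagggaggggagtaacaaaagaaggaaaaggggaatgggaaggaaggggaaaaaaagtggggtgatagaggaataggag
Hoxd9: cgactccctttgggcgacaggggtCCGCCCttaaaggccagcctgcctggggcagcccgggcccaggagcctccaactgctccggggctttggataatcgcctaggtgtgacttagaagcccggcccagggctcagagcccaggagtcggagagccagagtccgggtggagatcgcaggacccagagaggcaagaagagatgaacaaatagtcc
Hoxa5: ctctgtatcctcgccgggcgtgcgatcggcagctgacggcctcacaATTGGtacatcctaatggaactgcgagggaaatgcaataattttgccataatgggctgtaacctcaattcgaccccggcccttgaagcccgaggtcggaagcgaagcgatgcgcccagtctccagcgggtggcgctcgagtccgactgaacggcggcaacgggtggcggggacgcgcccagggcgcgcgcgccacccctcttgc
Hoxd4: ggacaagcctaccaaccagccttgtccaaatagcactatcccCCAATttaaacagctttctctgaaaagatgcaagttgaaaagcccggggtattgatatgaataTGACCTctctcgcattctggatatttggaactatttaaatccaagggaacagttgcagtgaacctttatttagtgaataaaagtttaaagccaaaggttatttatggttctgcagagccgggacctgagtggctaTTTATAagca
The Hoxa9 window is chr6:52227371-52227620 on the minus strand, before the start of its shorter transcripts, and the Hoxa5 window is chr6:52204588-52204837 on the minus strand. The Hoxd9 window is chr2:74697513-74697726 on the plus strand, where the last 36 bases before the RefSeq start are left out because GENCODE annotates them as transcribed. The Hoxd4 window is chr2:74721728-74721977 on the plus strand, before a start inside the longer Hoxd4 gene model. Hoxa5 holds 28 CpG dinucleotides and Hoxa9 holds 3, and both genes fell. Hoxd9 holds 10 and Hoxd4 holds 3, and the median over the 32851 promoters of the table is 6 in 250 bases. RefSeq windows were matched for 22 of the 39 genes, in 24 windows. A CCAAT box was found in 14 of the 24, against 33.9% of all promoters, and a GC box in 10, against 32.7%. A TATA box was found in 4 windows, against 12.4% of all promoters, a retinoid receptor motif in 6, against 14.02%, and a PBX-HOX site in 2 windows, of Hoxa2 and Hoxd11, against 2.83%.

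Pooled over all ages, the ovary used the middle of the clusters. By mean FPKM over the 22 libraries the highest HOX genes were Hoxd9 with 21.3, Hoxc6 with 14.9, Hoxc8 with 8.65, Hoxd10 with 7.05, Hoxd4 with 6.88, Hoxc5 with 6.28, Hoxd8 with 5.98 and Hoxc4 with 5.38. In this pooled rank all 8 belong to the Hoxc or Hoxd cluster and to paralogue groups 4 to 10. The order differed by age: at E13 and E15 Hoxa5 had means of 15.5 and 20.3 FPKM and Hoxb3 of 10.1 and 11.1, which put both among the 8 highest there. The highest Hoxa gene was Hoxa5, with 5.10, and the highest Hoxb gene Hoxb3, with 3.25. Paralogue group 9 held on average 25.4% of the summed HOX FPKM, group 6 held 16.5%, group 4 held 13.4% and group 8 held 12.9%. This too changed with age: group 5 held 16.6% at E13 and 5.70% in adult libraries, and group 9 held 14.3% at E13 and 27.8% in adult libraries. The outermost groups were nearly silent, with 0.324% for group 1 and 0.161% for group 13. In all, 11 genes reached 1 FPKM in every library.

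Of the 39 genes, 29 reached 1 FPKM in at least 2 libraries and were tested: 9 of the Hoxa cluster, 8 of Hoxb, 6 of Hoxc and 6 of Hoxd. A gene that passed only through the ages where it was high had to differ, so the counts below describe these 29 and not the family. The other 10 lay at the ends of the clusters, in paralogue groups 1, 11, 12 or 13, among them Hoxa13, Hoxb13, Hoxc12, Hoxd1 and Hoxd13. Their highest value was 0.840 FPKM, of Hoxd1 at E13. Hoxc12 was listed at 0 in all 22 libraries, and Hoxb13 was above 0 only in E13 replicate 1, at about 4 estimated reads. Hoxd13 rested on about 21.97 estimated reads over the 22 libraries and Hoxd12 on about 18.99.

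**Figure D1:**
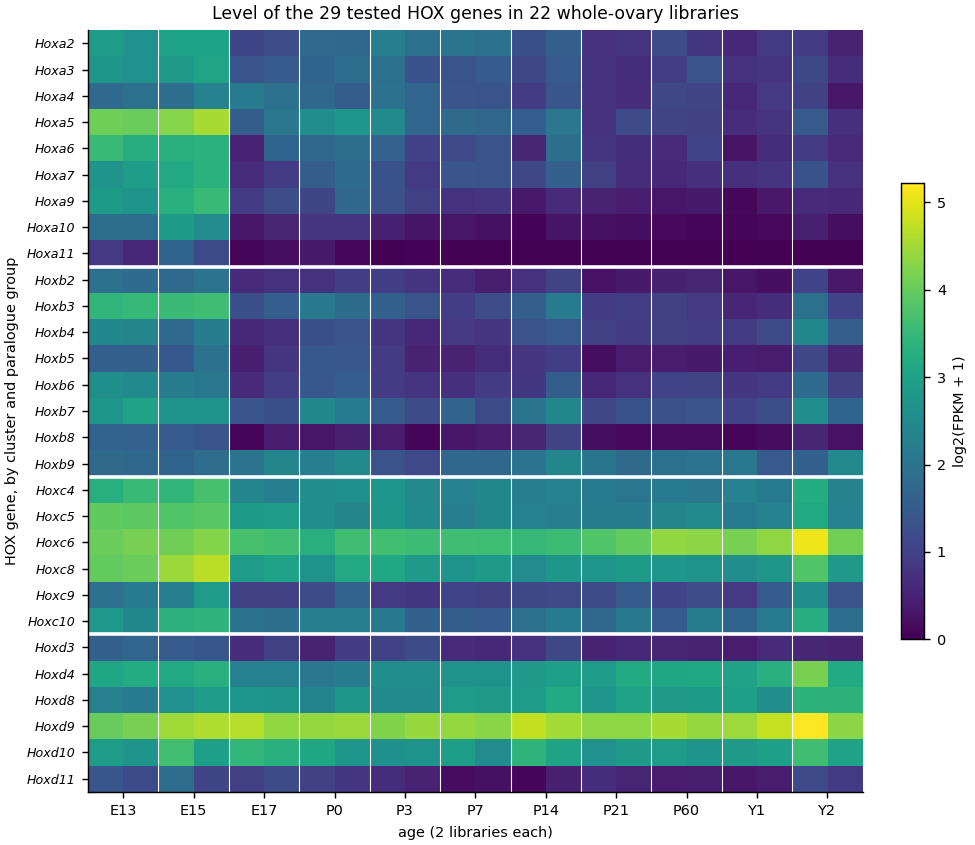
Level of each of the 29 tested HOX genes (rows, by cluster and paralogue group) in each of the 22 libraries (columns, by age), as log2(FPKM + 1). Hoxd9 and Hoxc6 are bright in every column, and many Hoxa and Hoxb genes are brighter at E13 and E15 than later.

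The summed HOX level dropped inside the fetal period. It was 191 and 192 FPKM at E13, 224 and 243 at E15, and 97.5 and 99.2 at E17. At P0 the sums were 101 and 110 FPKM, and from P3 to Y1 they lay between 79.3 and 108. Both E17 libraries were below all 4 earlier fetal libraries and within the range of the postnatal ones. At Y2 the libraries gave 180 FPKM in replicate 1 and 95.1 in replicate 2. Of the 29 genes tested, 16 had their highest age mean at E15, 7 at E13, 4 at Y2, 1 at E17 and 1 at P0. In bulk RNA, fewer cells of a type and less RNA per cell cannot be told apart.

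The clusters did not fall alike. The Hoxa sum was 52.8 and 56.6 FPKM at E13, 68.7 and 76.1 at E15, 10.6 and 14.6 at E17, and 3.43 to 8.78 in the adult libraries. The Hoxd sum was 37.4 and 38.6 FPKM at E13, 48.7 and 51.4 at E15, 41.1 and 45.9 at E17, and 40.3 to 75.6 in the adult libraries. So the Hoxa libraries of E13 and E15 lay above all later ones, while the adult Hoxd range overlapped the fetal one. As a share of the summed HOX FPKM, Hoxa went from 24.1% ± 8.95 (SD, n = 6) in fetal to 5.37% ± 1.34 in adult libraries, and Hoxb from 13.9% ± 3.98 to 9.30% ± 1.98. Hoxc went from 33.5% ± 0.882 to 39.2% ± 1.98 and Hoxd from 28.5% ± 12.4 to 46.2% ± 2.95. Without the highest gene of each cluster the Hoxc share turned, from 36.2% to 35.2%. Most of the Hoxd range lay between fetal ages, from a mean of 19.8% at E13 and 21.5% at E15 to 44.3% at E17.

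**Figure D2:**
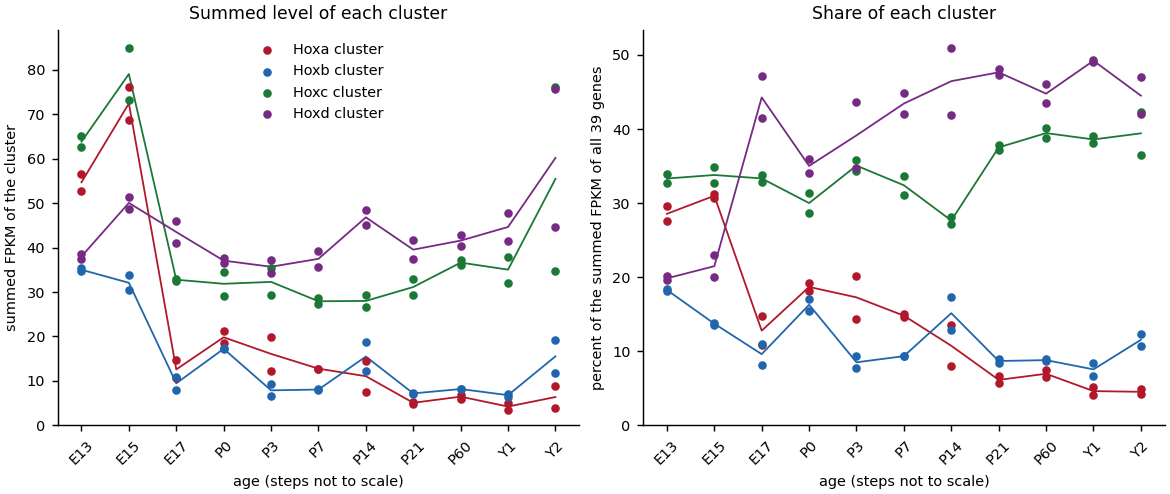
Summed FPKM of each HOX cluster (left) and its percent of the summed FPKM of all 39 genes (right) against age; points are libraries, lines join the age means, and age steps are not to scale. The Hoxa sum drops from 68.7 and 76.1 FPKM at E15 to 10.6 and 14.6 at E17, while the Hoxd sum at E17 is 41.1 and 45.9, and Y2 replicate 1 stands above replicate 2 in the sums of all 4 clusters.

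Differences were tested with limma on log2(FPKM + 1) over all 16117 genes that reached 1 FPKM in at least 2 libraries, with Benjamini-Hochberg adjusted p-values over all of them and a threshold of 0.05. The comparisons share libraries with each other. Whether the 2 libraries at each age stem from different animals is not labelled, so the p-values measure only how far these libraries differ, which may be technical. Over the 11 ages 28 of the 29 HOX genes changed, at a background of 88.1% of all genes tested, so this count says little about the family. The exception was Hoxd9, whose age means spanned 0.69 on the log2 scale (limma adjusted p = 0.23).

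From fetal to adult ovary 23 HOX genes were lower and 3 higher, and 3 were not called. Of all genes tested 44.9% were lower and 29.8% higher, against 79.3% and 10.3% of the HOX genes. The median HOX difference was -0.77, against -0.13 over all genes tested. By cluster the median was -1.48 for Hoxa, -0.75 for Hoxb, -0.63 for Hoxc and 0.04 for Hoxd. All 9 Hoxa genes were lower, as were 7 of 8 in Hoxb and 5 of 6 in Hoxc, while in Hoxd 2 were lower, 2 higher and 2 not called. These counts and medians include Hoxa10, Hoxa11 and Hoxb8, which passed the filter only through E13 and E15, so a lower adult level came with the filter. Hoxa11, which passed through E15 alone, is the middle gene, so the HOX median is its value. Its lower adult level came with the filter in the next count as well. In 6 genes every adult library was below every fetal one (Hoxa3, Hoxa4, Hoxa5, Hoxa9, Hoxa11 and Hoxd3), a share close to the 21.4% of all genes tested, and in 0 every adult library was above, against 13.5%. The contrast rests on E13 and E15: against E17 alone, a side chosen after seeing the data, 6 HOX genes were lower, at a background of 39.4%, and 3 higher, at 24.3%. The median-of-ratios rescaling moved the all-gene median from -0.13 to 0.01 and the share of higher genes among all genes called from 39.8% to 51.5%. Then 21 HOX genes were lower and 4 higher, Hoxd9 among the latter. Of all 16100 genes tested under that scaling, 5687 were lower and 6032 higher.

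Hoxa5, which in the mouse is needed for lung and thoracic development, fell furthest. Its level was 15.7 and 15.4 FPKM at E13, 18.3 and 22.3 at E15, 1.89 and 3.23 at E17, 4.94 and 5.66 at P0, 4.67 and 2.28 at P3, 2.51 and 2.31 at P7, 1.96 and 3.23 at P14, 0.698 and 1.22 at P21, 1.09 and 1.05 at P60, 0.574 and 0.733 at Y1, and 1.76 and 0.634 at Y2. Both E17 libraries were below every earlier one, and no adult library reached the lowest fetal value. The difference from fetal to adult was -2.47 ± 0.16 (SE; limma adjusted p = 3.3e-09), and against E17 alone it was -0.85.

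Hoxa9, whose mouse expression marks the future oviduct, fell by 2.03 ± 0.11 on the log2 scale (limma adjusted p = 4.2e-10). Its libraries read 6.22 and 5.49 FPKM at E13, 8.93 and 10.7 at E15, 0.908 and 1.35 at E17, 1.12 and 2.38 at P0, 1.45 and 0.975 at P3, 0.692 and 0.756 at P7, 0.284 and 0.541 at P14, 0.423 and 0.330 at P21, 0.246 and 0.293 at P60, 0.0817 and 0.286 at Y1, and 0.544 and 0.496 at Y2. The 4 libraries of E13 and E15 were the highest, every later library was below them, and fetal and adult values did not overlap. Against E17 alone Hoxa9 fell by 0.69. Hoxa6, of the trunk-patterning middle groups, fell by 1.90 ± 0.22 (limma adjusted p = 2.1e-06). Its values were 10.4 and 8.55 FPKM at E13, 8.79 and 9.04 at E15, 0.423 and 2.20 at E17, 2.39 and 2.68 at P0, 2.11 and 1.02 at P3, 1.23 and 1.51 at P7, 0.476 and 2.70 at P14, 0.750 and 0.614 at P21, 0.550 and 1.07 at P60, 0.205 and 0.599 at Y1, and 0.865 and 0.545 at Y2. The lower E17 library lay inside the adult range, and against E17 alone the difference was -0.40 (limma adjusted p = 0.28).

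Hoxa10 and Hoxa11, posterior Hoxa genes of the Müllerian duct, were high at E13 and E15 only. Both reached 1 FPKM in no library of another age, and Hoxa11 reached it only at E15. They passed the filter through those ages alone, so their fetal-to-adult tests are not given. Hoxa10, needed for uterine identity in the mouse, was at 2.70 and 2.70 FPKM at E13, 6.18 and 4.70 at E15 and 0.241 and 0.477 at E17 and 0.0708 to 0.377 in adult libraries, with the lower E17 library inside the adult range. Hoxa11, its uterine neighbour, was at 0.824 and 0.495 FPKM at E13, 2.23 and 1.25 at E15 and 0.0674 and 0.158 at E17, and it was listed at 0 in every library from P7 on. Those low levels rest on few reads and on a gene that an antisense RNA overlaps, so no fold of FPKM is given. Hoxa13, of the vaginal end of the tract, was not tested, at 0.103 to 0.193 FPKM at E13 and E15, 0.126 and 0.302 at E17 and 0 to 0.0224 in adults.

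The 3 genes that were higher in adult ovary were Hoxd4, Hoxc6 and Hoxd8, by 0.43 ± 0.12, 0.42 ± 0.12 and 0.42 ± 0.09 (limma adjusted p = 0.0067, 0.0065 and 0.00066). All 3 calls rest on Y2: with P60 and Y1 as the adult side, chosen after seeing the data, the differences were 0.24, 0.32 and 0.23 and 0 genes passed in limma, at a background of 27.1%, while 2 had an unadjusted p under 0.05. The count of lower genes stayed at 23, at a background of 43.3%. Against E17 alone as the fetal side the differences of Hoxd4, Hoxc6 and Hoxd8 were 1.02, 0.74 and 0.26. Hoxd8 was not called there (limma adjusted p = 0.085). The level of Hoxd4 was 7.51 and 8.23 FPKM at E13, 7.99 and 8.70 at E15, 3.88 and 3.88 at E17, 3.28 and 3.59 at P0, 4.96 and 5.003 at P3, 5.45 and 5.42 at P7, 5.98 and 6.77 at P14, 6.36 and 8.20 at P21, 7.46 and 7.63 at P60, 7.03 and 9.03 at Y1, and 16.9 and 8.11 at Y2. Hoxd4, a gene of the hindbrain and neck region, had its lowest values at E17 and P0 and its adult values overlapped those of E13 and E15. Its reads are shared with Hoxd3, which fell by 0.77 ± 0.09 (limma adjusted p = 1.6e-06).

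Hoxc6 read 15.4 and 16.9 FPKM at E13, 16.1 and 18.2 at E15, 12.1 and 11.3 at E17, 8.63 and 11.2 at P0, 11.5 and 10.9 at P3, 11.3 and 11.2 at P7, 10.1 and 10.97 at P14, 13.02 and 14.6 at P21, 19.7 and 18.9 at P60, 16.8 and 19.5 at Y1, and 33.1 and 16.4 at Y2. Hoxc6, a thoracic gene of the trunk, had its lowest library at P0 and was higher again from P21 on, and its adult range of 16.4 to 33.1 FPKM overlapped the fetal range of 11.3 to 18.2. For Hoxd8 the values were 3.83 and 3.42 FPKM at E13, 5.28 and 6.40 at E15, 5.73 and 5.51 at E17, 4.10 and 5.78 at P0, 4.69 and 4.58 at P3, 6.39 and 6.05 at P7, 6.31 and 8.13 at P14, 5.66 and 7.07 at P21, 6.11 and 6.23 at P60, 6.68 and 4.91 at Y1, and 9.33 and 9.37 at Y2. Hoxd8 was lowest at E13 and highest at Y2, and its fetal and adult ranges overlapped.

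**Figure D3:**
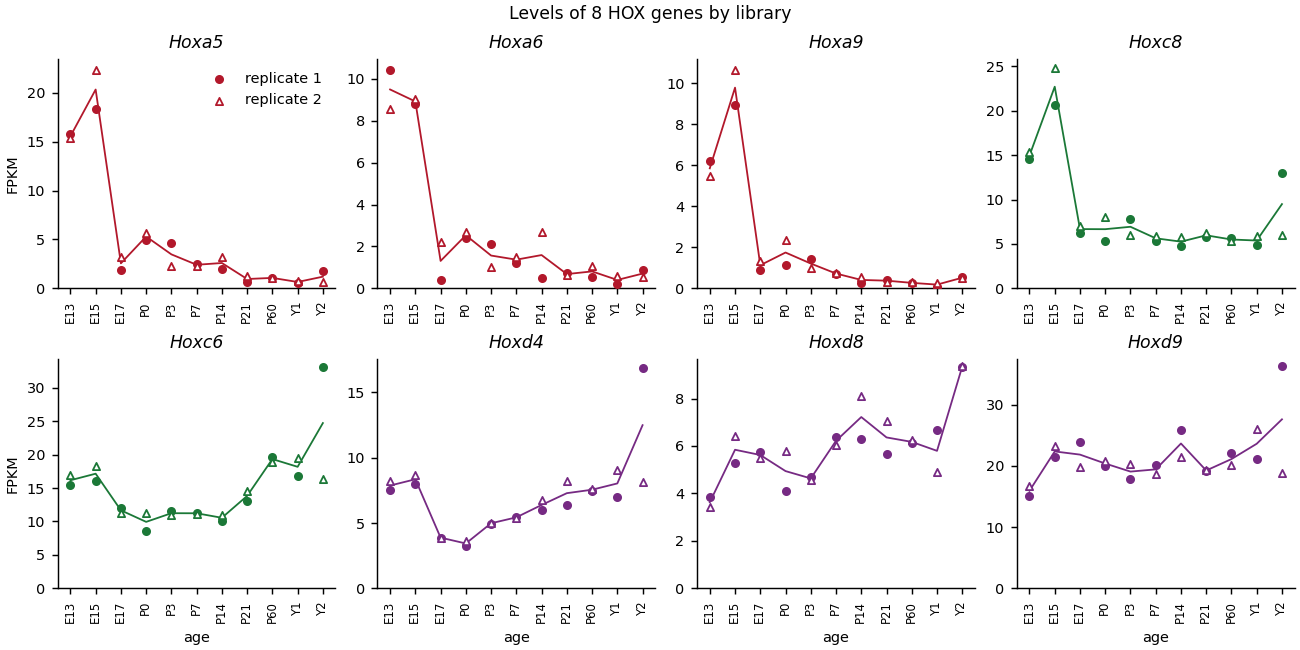
FPKM of 8 HOX genes in every library, by age; filled circles are replicate 1, open triangles replicate 2, and lines join the age means. Hoxa5, Hoxa6, Hoxa9 and Hoxc8 drop between E15 and E17, Hoxc6 and Hoxd4 dip and return by adulthood, and Hoxd9 stays between 15.1 and 36.4 FPKM.

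Hoxd9, a posterior gene of the trunk, had the highest age mean of all HOX genes except at E13, where Hoxc6 led, and E15, where Hoxc8 did. Hoxd9 was at 15.1 and 16.8 FPKM at E13, 21.4 and 23.3 at E15, 23.9 and 19.8 at E17, 19.98 and 20.8 at P0, 17.8 and 20.4 at P3, 20.2 and 18.7 at P7, 25.8 and 21.5 at P14, 19.2 and 19.3 at P21, 22.2 and 20.1 at P60, 21.1 and 26.1 at Y1, and 36.4 and 18.8 at Y2. The fetal and adult ranges overlapped, with a difference of 0.24 ± 0.12 (limma adjusted p = 0.089), and Y2 replicate 1 was the highest library. Hoxd10 was at 6.30 and 5.50 FPKM at E13, 11.5 and 6.71 at E15, 10.1 and 9.004 at E17, 7.54 and 5.75 at P0, 5.15 and 5.31 at P3, 6.60 and 4.74 at P7, 9.54 and 7.07 at P14, 5.25 and 6.06 at P21, 6.31 and 5.48 at P60, 6.09 and 6.74 at Y1, and 11.2 and 7.05 at Y2. Hoxd10, which acts in the lumbar region and hindlimb, also overlapped between fetal and adult libraries, with a difference of -0.16 ± 0.13 (limma adjusted p = 0.28).

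Among the abundant Hoxc genes, all but Hoxc6 fell. Hoxc8 read 14.6 and 15.3 FPKM at E13, 20.6 and 24.8 at E15, 6.29 and 7.06 at E17, 5.33 and 7.99 at P0, 7.83 and 6.03 at P3, 5.32 and 5.95 at P7, 4.76 and 5.76 at P14, 5.74 and 6.20 at P21, 5.68 and 5.32 at P60, 4.93 and 5.84 at Y1, and 12.97 and 5.99 at Y2. Hoxc8, a gene of thoracic identity, was highest at E15, lay between 4.76 and 7.99 FPKM from E17 to Y1, and fell by 0.94 ± 0.14 (limma adjusted p = 2.8e-05). Hoxc5 was at 14.5 and 13.9 FPKM at E13, 13.1 and 13.5 at E15, 6.16 and 6.38 at E17, 4.96 and 4.21 at P0, 5.79 and 4.62 at P3, 3.69 and 4.28 at P7, 3.92 and 3.68 at P14, 3.64 and 3.62 at P21, 4.17 and 4.66 at P60, 3.36 and 3.98 at Y1, and 7.99 and 3.99 at Y2. For Hoxc4 the levels were 8.75 and 10.6 FPKM at E13, 9.78 and 11.98 at E15, 4.21 and 3.76 at E17, 5.10 and 5.15 at P0, 5.67 and 4.52 at P3, 3.97 and 4.31 at P7, 3.71 and 3.998 at P14, 3.38 and 3.16 at P21, 3.42 and 3.17 at P60, 3.98 and 3.37 at Y1, and 8.41 and 4.03 at Y2. Hoxc5 and Hoxc4, its neighbours toward the head end, dropped between E15 and E17, and no later library reached their E13 and E15 values. From fetal to adult Hoxc5 fell by 1.08 ± 0.11 (limma adjusted p = 5.4e-07) and Hoxc4 by 0.73 ± 0.12 (limma adjusted p = 6.8e-05). In the Hoxb cluster Hoxb3 fell furthest, by 1.81 ± 0.14 (limma adjusted p = 1.6e-08), and Hoxb9 was the gene not called, with a difference of 0.01 ± 0.14 and levels of 2.23 to 4.22 FPKM in fetal and 1.76 to 4.52 in adult libraries.

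Within paralogue groups the members parted. For each of the 30 pairs of tested genes that share a paralogue group, the difference of log2(FPKM + 1) was taken, called the ratio below. The added 1 pulls this ratio toward 0 for low genes and can turn the sign of its change. The ratio was compared between the 6 adult and 6 fetal libraries by a two-sided exact permutation test, whose smallest possible p is 0.00216. The p-values were adjusted over the 30 pairs. The pair comparison was chosen after seeing the data, pairs that share a gene are not independent, and libraries of one age count singly. The ratio differed in 19 of the 30. A Hoxd gene was in 13 pairs, of which 8 differed, and in all 8 the Hoxd gene gained on its paralogue. With E17 alone as the fetal side the sign on this scale was the same in these 8, which was not tested. The smallest was -0.12, for Hoxb3 against Hoxd3. In mean FPKM Hoxb3 went from 1.69 at E17 to 1.13 in adults, and Hoxd3 from 0.784 to 0.453, the larger fall as a ratio. Of these 8 pairs 5 rest on Hoxd3 or Hoxd4, whose shared sequence makes their levels uncertain, and the others are Hoxb8 and Hoxc8 against Hoxd8 and Hoxa9 against Hoxd9. The Hoxd pairs that were not called went both ways from E17 to adult, also not tested. Hoxc9 against Hoxd9 moved by 0.32, Hoxa10 and Hoxc10 against Hoxd10 by 0.15 and 0.58, and Hoxa11 against Hoxd11 by 0.33. For Hoxa10 and Hoxa11 that sign comes from the added 1. In mean FPKM Hoxa11 went from 0.112 at E17 to 0 in adults, and Hoxd11 from 1.13 to 0.557. Hoxa10 went from 0.359 to 0.143 and Hoxd10 from 9.53 to 7.15. Hoxb9 against Hoxd9 moved by -0.37 from E17 to adult. Of the 17 pairs with no Hoxd gene 11 differed. Pairs with Hoxa10, Hoxa11 or Hoxb8 hold a gene that passed the filter only through E13 and E15, or for Hoxa11 through E15 alone. Outside those ages Hoxb8 reached 1 FPKM only in P14 replicate 2, with 1.11, so its loss against Hoxd8 came with the filter.

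Hoxa9 stood at -1.95 ± 1.16 (SD, n = 6) against Hoxd9 on the log2(FPKM + 1) scale in fetal and -4.22 ± 0.307 in adult libraries (exact permutation, adjusted p = 0.00812), with no overlap. The ratio was -1.21 at E13 and E15 and already -3.43 at E17. Hoxa4 against Hoxd4 moved by -1.60, Hoxc4 against Hoxd4 by -1.15, Hoxa5 against Hoxc5 by -1.39 and Hoxa6 against Hoxc6 by -2.32, each with the same exact permutation adjusted p = 0.00812. Hoxb9 against Hoxd9 moved by -0.23 (exact permutation, adjusted p = 0.485), which does not show that the pair moved alike.

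**Figure D4:**
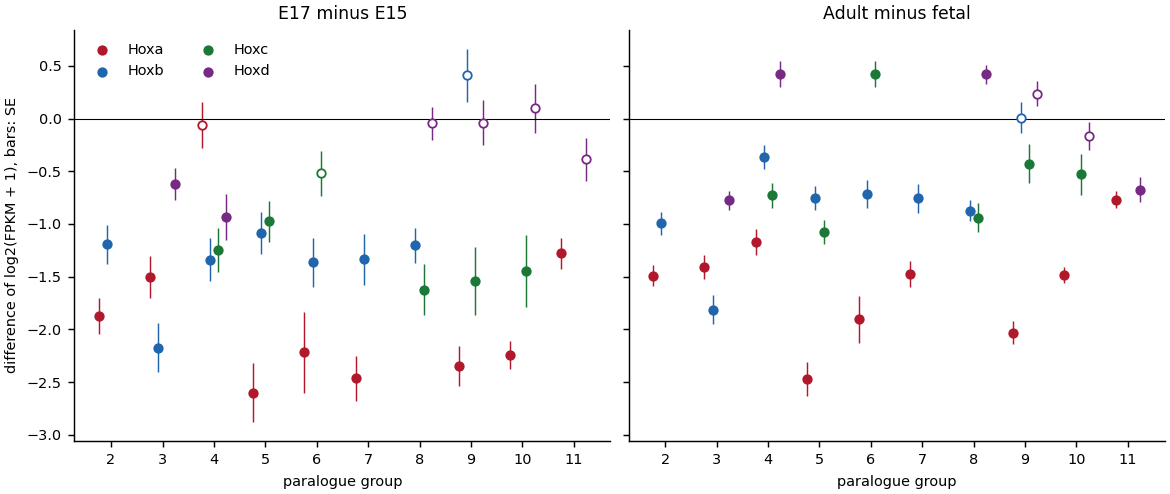
Difference of log2(FPKM + 1) with its SE for the 29 HOX genes tested, by paralogue group and cluster, for E17 minus E15 (left) and adult minus fetal (right); filled points passed a limma adjusted p of 0.05. The Hoxa genes of groups 5, 6, 7 and 9 lie lowest of their groups in both, and the Hoxd genes of groups 8, 9 and 10 lie between -0.16 and 0.42.

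The step from E15 to E17, a comparison chosen after the values had been seen, held most of the fall. From E15 to E17 22 of the 29 genes were lower, or 75.9%, at a background of 15.6%. In limma 0 were higher, at a background of 18.8%, also at an unadjusted p under 0.05. The median HOX difference was -1.28, against 0.02 over all genes tested, and by cluster -2.22 for Hoxa, -1.27 for Hoxb, -1.35 for Hoxc and -0.22 for Hoxd. The largest falls were Hoxa5 by 2.60 ± 0.28 (limma adjusted p = 7.9e-06), Hoxa7 by 2.46 ± 0.21 (limma adjusted p = 1.2e-06) and Hoxa9 by 2.34 ± 0.19 (limma adjusted p = 6.6e-07). The 7 genes not called were Hoxa4, Hoxb9, Hoxc6, Hoxd8, Hoxd9, Hoxd10 and Hoxd11. Hoxa10, Hoxa11 and Hoxb8, which passed the filter only through E13 and E15, are among the 22 lower genes. Hoxa11 passed through E15 alone, so its fall from E15 came with the filter. From E13 to E17 21 genes were lower, at a background of 14.2%, and 1 was higher, at 18.6%. Hoxa6 fell by 2.29 ± 0.39 (limma adjusted p = 0.00041), Hoxa5 by 2.24 ± 0.28 (limma adjusted p = 2.9e-05) and Hoxb3 by 2.05 ± 0.23 (limma adjusted p = 1.4e-05). Hoxd8 rose by 0.52 ± 0.16 (limma adjusted p = 0.02), a call lost when any 1 of the 4 libraries was left out. Hoxd10 was called higher too without either E15 library, and Hoxd10 and Hoxd9 without either Y2 library, which changes only the estimate of the spread.

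Some markers of the neighbouring ducts were lower over the same days. Of 11 tested genes of the oviduct, uterus and mesonephric duct list 5 were lower, 1 higher and 5 not called at E17 against E15, where 15.6% of all genes tested were lower and 18.8% higher. From fetal to adult 10 were lower and 1 higher, against 44.9% and 29.8%. Among them, the ovary itself also expresses Emx2. The kidney and duct cadherin Cdh16 was at 31.1 and 28.4 FPKM at E13, 9.97 and 7.18 at E15 and 1.40 and 2.28 at E17 and 0 to 0.115 in adults. Wnt7a, of the Müllerian epithelium, was at 5.20 and 5.61 FPKM at E13, 6.39 and 3.40 at E15 and 1.18 and 0.612 at E17. Pax2 and Lhx1, transcription factors of both ducts, had means of 0.111 and 0.104 FPKM at E17 and 0.919 and 1.44 at E15. Lhx1 was listed at 0 in all 6 adult libraries. From E13 to E15 the summed marker level was lower while the summed HOX level was higher. Msx1 rose from E15 to E17 and fell by adulthood. Summed levels of markers of other cell types also moved. From E15 to E17 the sum went from 93.4 and 96.1 to 214 and 258 FPKM for germ cells, and from 66.8 and 77.4 to 151 and 181 for granulosa cells. For blood and immune cells the sum went from 211.9 and 290 to 494 and 1064. In limma 0 of these 4 blood and immune markers were called there, with a median difference of -0.11. Theca and steroidogenic markers summed to 2.23 to 5.76 FPKM in fetal and 531 to 5092 in adult libraries. Blood and immune markers summed to 3.29 to 18.4 in adults. Yet from fetal to adult 1 of the 4 was lower and 3 higher, against 44.9% and 29.8% of all genes tested, with a median of 0.92. The part of carried duct tissue, or of these cell types, in the HOX change was not tested.

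From E17 to P7 and from P7 to P60 few HOX genes were called. E17 to P0 was not tested; the Hoxb sum was 8.002 and 10.9 FPKM at E17 and 17.3 and 17.1 at P0. From E17 to P7 1 gene was higher, at a background of 16.6%, and 4 lower, at 20.7%. Hoxa2, which patterns the hindbrain and second branchial arch, rose by 0.82 ± 0.17 (limma adjusted p = 0.0018), from 1.12 and 1.34 FPKM at E17 to 3.06 and 2.80 at P7. It was at 7.22 and 7.16 FPKM at E15, and against the mean of the fetal ages the difference was -0.35 and did not pass (limma adjusted p = 0.059). Hoxd11 fell by 0.88 ± 0.20 (limma adjusted p = 0.0037), Hoxd10 by 0.67 ± 0.23 (limma adjusted p = 0.035) and Hoxa4 by 0.67 ± 0.22 (limma adjusted p = 0.027), and Hoxc5 was the other gene. Hoxd11 was the only one called without E17 replicate 1 or P7 replicate 2, while without E17 replicate 2 Hoxa4 and Hoxd11 were, and without P7 replicate 1 Hoxd10 and Hoxd11. Hoxa7 was called higher too without any 1 library of P3 or P14, and Hoxa7 and Hoxd4 without either Y2 library. From P7 to P60 1 gene was higher, at a background of 13.3%, and 2 were lower, at 21.8%. Hoxc6 rose by 0.73 ± 0.21 (limma adjusted p = 0.015), a call lost without any 1 of its 4 libraries, Hoxa2 fell by 0.95 ± 0.17 (limma adjusted p = 0.00061) and Hoxa7 fell by 0.72 ± 0.21 (limma adjusted p = 0.017), the last lost without either P7 library or P60 replicate 1. Hoxd4 was called higher too without either Y2 library. Fat cell markers summed to 33.8 FPKM in P14 replicate 1 and 173 in P14 replicate 2. There replicate 1 was the higher one in 3 of the 29 HOX genes, against 51.2% of all genes tested. The oviduct, uterus and mesonephric duct markers summed to 25.2 and 34.9 FPKM in these libraries. At Y1 the fat cell sum was 69.8 FPKM in replicate 1 and 3.27 in replicate 2. Replicate 1 of Y1 was the higher one in 5 of the 29, against 41.0% of all genes tested. Whether these levels are linked was not tested. No comparison above uses P14 as a side.

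From fetal ovary to 2 years 16 genes were lower, at a background of 40.2%, and 3 higher, at 27.2%. Hoxa5 fell by 2.33 ± 0.23 (limma adjusted p = 4.2e-07), Hoxa6 by 1.83 ± 0.32 (limma adjusted p = 0.00013) and Hoxa9 by 1.82 ± 0.16 (limma adjusted p = 1e-07). Hoxd8 rose by 0.80 ± 0.13 (limma adjusted p = 5.8e-05), Hoxd4 by 0.79 ± 0.18 (limma adjusted p = 0.0012) and Hoxc6 by 0.62 ± 0.17 (limma adjusted p = 0.0056). Without Y2 replicate 1 the Hoxc6 difference was only 0.14. That of Hoxb9 was 0.55 without Y2 replicate 1 and -0.30 without Y2 replicate 2. Without Y2 replicate 2, 7 genes were higher, Hoxd9, Hoxc9, Hoxb4 and Hoxc10 in addition. Against E17 alone as the fetal side, 5 genes were lower and 7 higher at 2 years. Of the 16117 genes tested, 5933 were lower and 3690 higher there, so the HOX share of higher genes sits near that of all genes. The HOX median turned from -0.53 to 0.07, against -0.14 over all genes tested, and Hoxa6 was not called (limma adjusted p = 0.49). From P60 to Y2 5 genes were higher, at a background of 10.8%, and 0 lower in limma, at 17.4%; at an unadjusted p under 0.05 the counts were 11 and 0. The 3 largest were Hoxb4, which supports blood stem cells, by 1.02 ± 0.20 (limma adjusted p = 0.0017), Hoxb7 by 0.79 ± 0.24 (limma adjusted p = 0.024) and Hoxc4 by 0.68 ± 0.21 (limma adjusted p = 0.025), and Hoxd11 and Hoxd8 were the other 2.

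This rise at 2 years depended on single libraries. Hoxb4 was at 0.983 and 0.943 FPKM at P60, 0.839 and 1.25 at Y1 and 4.26 and 1.99 at Y2, with both Y2 libraries above the P60 and Y1 ones. Y2 replicate 1 was above replicate 2 in 26 of the 29 HOX genes, by a median of 0.69, against a median of 0.14 and 64.7% of all genes tested. Without Y2 replicate 2, 17 genes were higher, at a background of 13.8%, and without Y2 replicate 1, Hoxb4 and Hoxd8 were, at 12.2%, with Hoxa4 lower. Without either P60 library it was Hoxb4 alone, at 6.59% and 7.36%. Hoxd8 was at 9.33 and 9.37 FPKM in the Y2 libraries and at 6.11 and 6.23 at P60.

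**Figure D5:**
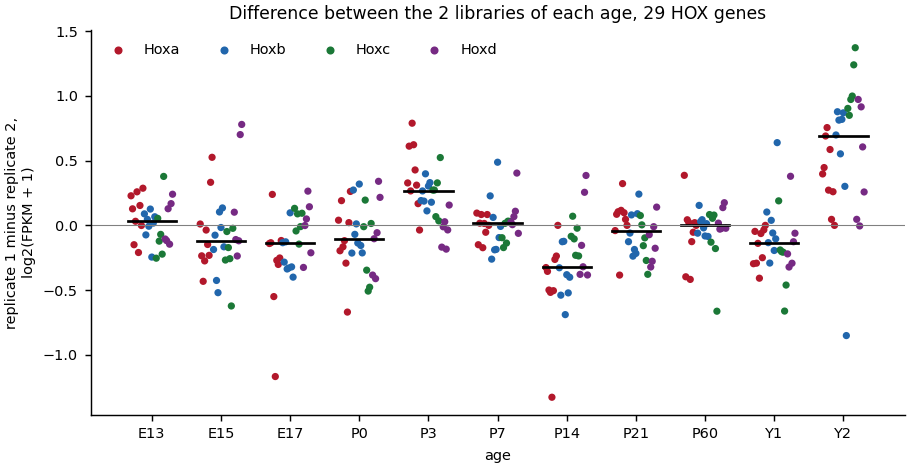
Replicate 1 minus replicate 2 in log2(FPKM + 1) for the 29 HOX genes tested, by age, with points coloured by cluster and bars at the median. The median is 0.69 at Y2 and -0.32 at P14, and lies between -0.14 and 0.27 at the other ages.

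HOX proteins bind DNA with cofactors of the TALE class, the PBX, MEIS and PKNOX homeodomain proteins. Of 8 tested of 9 listed, 6 were lower and 0 higher in adult than in fetal ovary by limma, against 44.9% and 29.8% of all genes tested, with a median difference of -0.83 against -0.13. From E15 to E17 6 were lower, against 15.6% of all genes. Meis2 was at 7.33 and 6.93 FPKM at E13, 8.84 and 8.77 at E15 and 1.68 and 1.75 at E17 and 0.571 to 2.63 in adults. It fell by 1.61 ± 0.10 from fetal to adult (limma adjusted p = 1.4e-09), Meis1 by 1.47 ± 0.10 (limma adjusted p = 6.7e-09) and Pbx3 by 1.30 ± 0.10 (limma adjusted p = 1.4e-08). Meis1 and Meis2 also dropped from E15 to E17, by 1.44 and 1.85 (limma adjusted p = 2.6e-05 and 1.8e-06), and Pbx3 was level there.

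Polycomb proteins keep HOX genes silent and Trithorax proteins keep them active. Of 23 Polycomb genes 13 were lower and 6 higher in adult than in fetal ovary, against 44.9% and 29.8% of all genes tested, so the counts say little about these genes. Their median was -0.42, against -0.13 over all genes, and the largest changes were Ezh2, the H3K27 methyltransferase, by -1.36, Phf19, its cofactor, by -1.29, and Phc1 by -1.27. Of 15 Trithorax and related genes 9 were lower and 2 higher, against the same 44.9% and 29.8%, with a median of -0.29, led by Psip1 with -1.02, Wdr5 with -0.90 and Ash2l with -0.76. From E15 to E17 the Polycomb counts were 4 lower and 4 higher, and the Trithorax counts 1 lower and 6 higher, against 15.6% lower and 18.8% higher of all genes tested, a share the Polycomb counts sit near. Of the noncoding RNAs of the clusters 10 of 14 listed were in the table and 2 were tested: Hoxd3os1 rose by 0.31 ± 0.08 from fetal to adult (limma adjusted p = 0.0044) and Hotairm1, of the Hoxa cluster, had a difference of 0.24 ± 0.12 (limma adjusted p = 0.078). Of 14 tested genes that flank the clusters 6 were lower and 6 higher from fetal to adult, against 44.9% and 29.8% of all genes tested, led by Hnrnpa1 with -1.11, Cbx5 with -0.96 and Calcoco2 with -0.77.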

How the data were processed

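The deposited table holds FPKM values that the authors computed for 34745 genes in 22 libraries, and 0 columns were left unused. HISAT2, StringTie, edgeR and mm10 are named in the submitters' processing notes, while the series' design text names TopHat; their versions and the strand setting are unknown here. For the tests, 1 was added to each FPKM, log2 was taken, and limma 3.58.1 (R 4.3.3) was fitted with age as a factor, an intensity trend, 11 residual degrees of freedom, and genes of at least 1 FPKM in at least 2 libraries. Fold changes on this scale understate the change of low genes. The fit was tested on simulated data. The HOX genes, gene lists and tests were chosen with earlier results of these data known.

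Values in every library are given for the 8 HOX genes of highest mean and, from fetal to adult, for the 3 called genes that rose most and the 3 that fell most. In the other comparisons, the 3 largest each way are named, and of each list the 3 largest changes. Duct markers and genes outside this rule were named after their values were seen. Alternatives were other pseudocounts (0.1, 0.01), filters, scalings, a fit without the trend, a replicate block, other sides and leaving out each library. Genes were matched to GENCODE release M21, and promoters to RefSeq. Values of 1 HOX gene are not reported here.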

Additional observations from a re-analysis of the deposited data

How the results depend on the processing

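Libraries number 2 per age, so single libraries decide several calls, and genes under 1 FPKM rest on few reads. With E17 alone as the fetal side, 6 HOX genes were lower in adults, at a background of 39.4%. For Y2 against fetal 7 were then higher and 5 lower, where 3690 and 5933 of all 16117 genes tested were. With P60 and Y1 as the adult side, 0 were higher by limma (2 at an unadjusted p under 0.05), at a background of 27.1%. Median-of-ratios scaling gave 5 higher for Y2 against fetal and 8 for Y2 against P60, where 5414 and 2131 of all 16100 genes tested were. From E17 to P7, 2 were higher with pseudocounts of 0.1 or 0.01, median-of-ratios scaling, quantile normalization or no trend. Under these settings 2658 to 2956 of the 16100 or 16117 genes tested were higher. With the 0.1 FPKM filter 7 were lower, where 3751 of all 22700 genes tested were. With the mean of E13, E15 and E17 as the fetal side, 0 were higher and 22 lower at P7, where 3353 and 3955 of all 16117 genes tested were. The Hoxa2 difference was then -0.35, opposite in sign but not called (limma adjusted p = 0.059). Without the highest gene of each cluster, the adult shares were 8.11% for Hoxa, 14.9% for Hoxb, 35.2% for Hoxc and 41.8% for Hoxd, and the fetal Hoxc share was 36.2%, so that the Hoxc share no longer rose. The causes were not tested.

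Same-numbered libraries did not pair: over 55 pairs of ages the correlation of their deviations ran from -0.13 to 0.26, with 1 pair over 0.1. With the replicate block, 28 genes changed over the ages, 3 were higher and 22 lower in adult against fetal, 3 and 16 in Y2 against fetal, 2 and 21 in E17 against E13, 0 and 22 in E17 against E15, 1 and 4 in P7 against E17, 1 and 2 in P60 against P7, and 5 and 0 in Y2 against P60.

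Leaving out each library in turn gave 26 to 29 genes changed over the ages. Adult against fetal gave 3 to 4 higher and 21 to 23 lower, Y2 against fetal 3 to 7 and 14 to 20, E17 against E13 0 to 3 and 19 to 23, and E17 against E15 0 to 0 and 21 to 23. P7 against E17 gave 1 to 3 higher and 1 to 4 lower, P60 against P7 0 to 2 and 1 to 3, and Y2 against P60 1 to 17 and 0 to 1. Of the paralogue pairs 14 to 20 differed, 6 to 10 of them with a Hoxd gene.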
